A study of Mus musculus with 2 samples.

Results

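The 35 genes described here encode interstitial collagens and the matricellular, small leucine-rich, elastic-fibre and cross-linking proteins that are laid down with them. They were chosen by name, as members of this matrix group, from 32574 genes in the files, and all 35 were found. Their RNA was followed through fibroblast states and other cell classes of mouse adductor muscle on day 7 after femoral artery ligation, in single-cell RNA sequencing of 1 WT library and 1 Apoa1bp-/- library (labelled AIBP-KO). Apoa1bp, now called Naxe, encodes apolipoprotein A-I binding protein (AIBP). The WT animals were littermates, ligation was performed on 4 animals of each genotype, and all cells of both groups come from ligated limbs, with no unligated muscle. The labels do not say whether the 4 animals were pooled, nor their age, sex or strain.

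Fibroblasts of ischaemic muscle rebuild the connective tissue between fibres. Collagens I and III form the load-bearing fibrils, collagen V starts and thins them, collagen VI makes a beaded network around fibres, and the lysyl oxidases cross-link collagen and elastin. Matricellular proteins such as periostin, tenascin-C, SPARC and the thrombospondins are made mainly during remodelling and tune how cells bind the matrix.

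The WT library held 14035 barcodes and 80954991 UMIs (unique molecular identifiers, each a counted RNA molecule), and the AIBP-KO library 9392 barcodes and 80444279 UMIs, with 43 barcode sequences in common. Kept cells had medians of 4461 and 6825 UMIs. The targeted gene Naxe had 4061 UMIs in WT and 0 in AIBP-KO, which allows up to 0.0374 CPM (UMIs per 1000000) in that library. With 1 library per genotype there is no replicate check of any genotype difference and no test was made. Every interval in brackets is an exact 95% interval for counting error, every ratio is AIBP-KO over WT, and n is 1 library for each value.

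Cells were assigned from marker genes that exclude all 35 members. The fibroblast-like class had 12 of its 12 markers detected in at least 25% of cells. It held 3617 cells in WT and 1292 in AIBP-KO, or 26.1% (25.4 to 26.9) and 14.1% (13.4 to 14.8) of kept barcodes. Within it, cells were assigned to a Pi16 progenitor-like state (10 of 10 markers detected), a Cxcl14 interstitial-like state (10 of 10), an activated state (15 of 16) and the fourth group. The fourth group matched the Gdf10 list best, with 6 of 10 markers. Its 10 leading genes held 2 of that list, Thbs4 and Penk. Immunoglobulin genes and Car3 were also among them, as was Cxcl14, a marker of another state, so the group is left unnamed. Its Igkc UMIs, 4041 in WT and 10 in AIBP-KO, included 3 WT barcodes with at least 10 each. Barcodes carrying markers of a pair of lineages, 13.4% of WT and 11.4% of AIBP-KO, were set aside.

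Of the 35 members, 21 have a start-site window in the RefSeq table for GRCm38.p6. The unmatched members were Col1a1, Col5a2, Col12a1, Col14a1, Fn1, Thbs1, Lum, Dcn, Eln, Lox, Loxl1, Loxl2, Cthrc1 and Mfap5. The 3 windows shown belong to Col1a2, Col3a1 and Postn, which had more than 1.5 times the WT level in AIBP-KO Pi16 progenitor-like cells. Sparc had so too, and its window is not shown. They are the stretches upstream of the RefSeq start that no GENCODE exon covers, on the + strand at chr6:4505370-4505492, chr1:45311288-45311537 and chr3:54360857-54361106. Capitals mark TATAAA, the TATA box letters, and GGGCGG, a GC box, on the strand shown.
Col1a2: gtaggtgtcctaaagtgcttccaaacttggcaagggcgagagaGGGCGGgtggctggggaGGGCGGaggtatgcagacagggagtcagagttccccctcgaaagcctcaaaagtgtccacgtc
Col3a1: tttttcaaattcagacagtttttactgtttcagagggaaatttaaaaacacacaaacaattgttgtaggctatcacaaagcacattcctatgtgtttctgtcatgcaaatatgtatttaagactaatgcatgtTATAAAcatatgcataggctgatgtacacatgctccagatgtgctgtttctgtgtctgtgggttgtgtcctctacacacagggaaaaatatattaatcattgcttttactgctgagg
Postn: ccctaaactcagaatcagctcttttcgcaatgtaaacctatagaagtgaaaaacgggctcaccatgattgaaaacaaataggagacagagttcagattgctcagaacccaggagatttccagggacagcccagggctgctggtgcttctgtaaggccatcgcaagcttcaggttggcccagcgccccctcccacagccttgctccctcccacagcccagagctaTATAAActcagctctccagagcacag

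Both strands were searched over 250 bases upstream. TATAAA was in 12.4% of all 32851 windows and in 5 of the 26 member windows, those of 4 genes, Col3a1, Postn, Thbs2 and Tnc. In Postn it began 26 bases before the start site, and in Col3a1 117 bases before it. GGGCGG was in 32.7% of all windows and in 15 of the 26 member windows, of 13 genes. In Col1a2 it began 205 and 188 bases before the start. CCAAT, in 33.8% of all windows, was in 5 of the 26 member windows, of 5 genes. No string was in all 3 of the stretches printed. The Col1a2 stretch is 123 of the 250 bases searched, and the CCAAT of that gene is not within it. Postn has another RefSeq window, at chr3:54359017-54359266, which held none of the strings. A match is a description of the letters.

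In both libraries the fibroblast-like class was where most of this matrix RNA lay. Member UMIs made up 7.94% (7.93 to 7.96) of all fibroblast UMIs in WT and 7.43% (7.42 to 7.45) in AIBP-KO. Fibroblast-like cells held 72.0% of all member UMIs in WT and 66.3% in AIBP-KO. Of the classes with at least 50 cells in each library, fibroblasts had the highest level of 30 members in WT and 31 in AIBP-KO. The exceptions were Col15a1 (endothelial), Eln, the elastin gene (pericyte and smooth muscle), Thbs1 (monocyte), Fbln5 (Schwann) and, in WT, Col16a1 (Schwann). All 35 members exceeded the level in lymphoid cells (T, NK and B) of the same library in fibroblasts, by intervals that did not overlap.

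**Figure D1:**
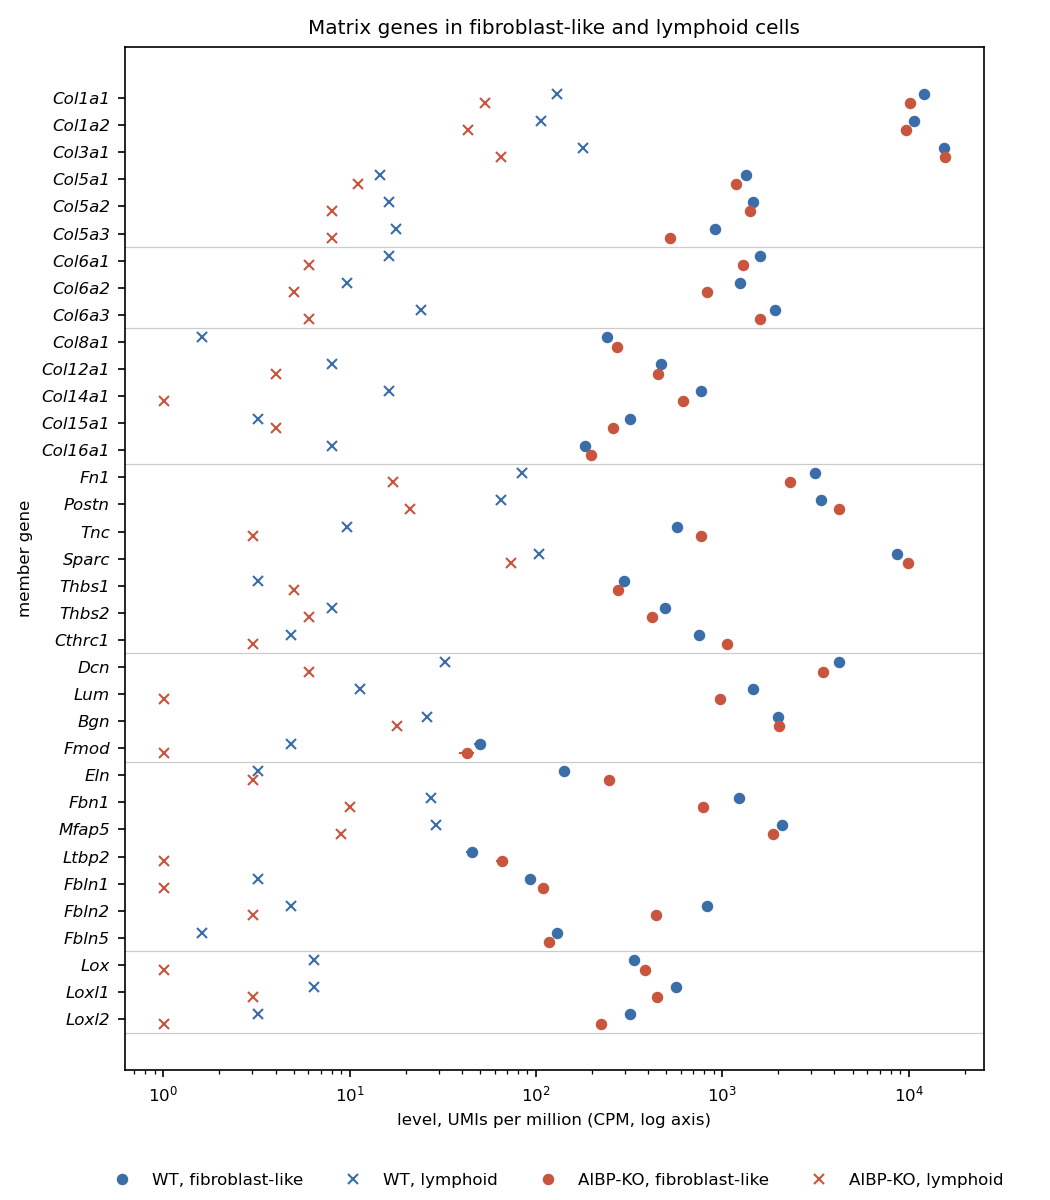
Level of each member in fibroblast-like cells (circles, with exact 95% Poisson intervals as lines, mostly shorter than the circle) and in lymphoid cells (crosses), in CPM on a log axis, for WT (blue) and AIBP-KO (red), 1 library each. Lymphoid levels of 0 are not drawn. Every circle lies to the right of the cross of its library, and most AIBP-KO crosses lie left of the WT crosses.

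Lymphoid cells are not known to make these collagens, so their level is given as that of free RNA. Members made up 0.0988% of lymphoid UMIs in WT and 0.0401% in AIBP-KO. Col1a1, the main chain of collagen I, stood there at 129 CPM in WT and 53.2 in AIBP-KO. Macrophages were close to this background: Col1a1 was at 157 and 37.5 CPM, Col1a2 at 132 and 35.6 and Col3a1 at 213 and 70.7. In macrophages 2 members exceeded the lymphoid level in both libraries. These were Fn1, the fibronectin gene, at 291 and 120 CPM, and Thbs1 at 61.4 and 69.3. Monocytes had the same pair above background, with Fn1 at 584 and 370 CPM and Thbs1, an activator of latent TGF-beta, at 324 and 335. Dendritic cells had no member above it in both libraries, and their Col1a1 was at 66.7 and 13.4 CPM.

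Outside the fibroblasts, mural, Schwann and muscle stem cells carried collagen RNA above that background. Pericyte- and smooth muscle-like cells had 25 members above the lymphoid level in both libraries, Schwann-like cells 20, and satellite cell- and myoblast-like cells 23. In mural cells Col1a1 was at 1934 CPM in WT and 825 in AIBP-KO, Col1a2 at 1769 and 944 and Col3a1 at 2646 and 2103. In satellite cells and myoblasts Col1a1 was at 598 and 241 CPM, Col1a2 at 1181 and 636 and Col3a1 at 1037 and 759. The Col1a1 ratio was 0.43 in mural cells and 0.40 in satellite cells, beside 0.41 in lymphoid cells, and the part of free RNA in these values was not tested. Schwann-like cells had 711 and 572 CPM of Col1a1 and 1452 and 1843 of Postn, which encodes periostin.

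Sparc, whose product binds collagen and calcium, was above the lymphoid level of both libraries in every class other than the leukocytes. Endothelial cells had 4611 CPM in WT and 6125 in AIBP-KO, mural cells 4354 and 5447, Schwann-like cells 4107 and 5298, satellite cells 1776 and 2155 and committed myocytes 1037 and 1061, against 103 and 73.2 in lymphoid cells. Endothelial cells also led Col15a1, a basement membrane zone collagen, at 524 and 627 CPM, and their Col1a1 stayed at 67.5 and 66.2. Eln stood at 645 and 842 CPM in mural cells and at 142 and 246 in all fibroblasts. Fbln5, needed for elastic fibre assembly, was at 250 and 129 CPM in Schwann-like cells and 129 and 117 in fibroblasts. Tenocyte-like cells, 18 in WT and 52 in AIBP-KO and so too few for a ratio, had 21639 and 20574 CPM of Col1a1 and 5982 and 2677 of Fmod, a small leucine-rich proteoglycan of tendon. Their Col3a1 was at 5443 and 3939 CPM and their Thbs1 at 1119 and 571.

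**Figure D2:**
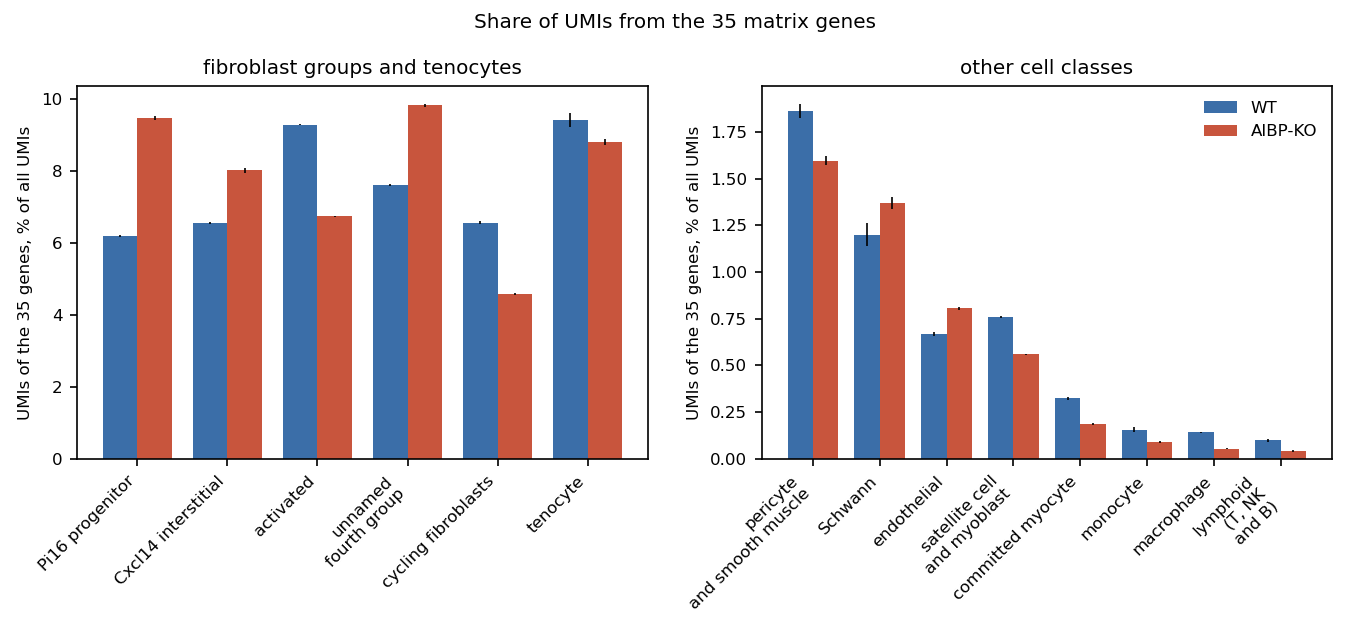
UMIs of the 35 members as a percent of all UMIs of each cell group, with exact 95% Poisson intervals, for WT (blue) and AIBP-KO (red). On the left, the AIBP-KO bar is higher in the Pi16 group, the Cxcl14 group and the fourth group and lower in the activated and cycling fibroblasts. On the right the axis ends below 2%, and macrophages and lymphoid cells are close to 0.

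In WT the members differed in the fibroblast state where they were highest. The activated state had the highest level of 18 members, the Cxcl14 interstitial-like state of 8, the Pi16 progenitor-like state of 6 and the fourth group of 3. Of the injury-matrix genes Postn, Tnc, Cthrc1, Fn1, Sparc and Thbs1, all but Fn1 were highest in the activated state. There Postn was at 5977 CPM, against 690 in the Pi16 state and 116 in the Cxcl14 state, and Tnc, the tenascin-C gene, was at 1150, against 7.11 and 9.54. Cthrc1, a secreted collagen triple-helix protein, was at 1310, 330 and 18.1 CPM in the same order, and Col12a1, a fibril-associated collagen, at 908, 28.5 and 26.9. Tnc in the Pi16 and Cxcl14 states was no higher than the lymphoid 9.70 CPM. The Cxcl14 state led for all 3 collagen VI chains and for the proteoglycan genes Dcn, at 11383 CPM, and Lum, at 3969. The Pi16 state led for Fn1 at 4716 CPM, Fbn1 (fibrillin-1) at 2676 and Mfap5, a microfibril gene, at 3355.

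In AIBP-KO 27 of the 35 members were highest in the same state as in WT. The highest state differed for Col1a1, Col1a2, Col3a1, Col5a2, Sparc, Fmod, Fbln5 and Loxl2. Col1a1 was highest in the activated state of WT, at 17770 CPM, and in the fourth group of AIBP-KO, at 12550. In WT the activated cells had 2.66 times the Col1a1 level of Pi16 cells, and in AIBP-KO 0.921 times. Postn, Tnc, Cthrc1 and Col12a1 led in the activated state of both libraries.

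Over fibroblast-like cells thinned to 1000 UMIs, Spearman's rho of Col1a1 was 0.74 with Col1a2 and 0.66 with Postn in WT, and 0.64 and 0.44 in AIBP-KO (3518 and 1270 cells). Dcn had a rho of -0.49 with Postn in WT and -0.35 in AIBP-KO, and of 0.50 and 0.60 with Lum. With the genes of collagens I and III its rho was negative in WT, at -0.43 for Col1a1, -0.32 for Col1a2 and -0.15 for Col3a1. In AIBP-KO these were -0.10, 0.07 and 0.45. With Col6a1, Col6a2 and Col6a3 its rho was positive, at 0.27, 0.28 and 0.17 in WT and 0.27, 0.29 and 0.32 in AIBP-KO. With Col5a3 it was 0.28 and 0.30. Cells of a library share its depth and free RNA, and these values describe the cells.

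The libraries differed in how many fibroblasts were in each state. Activated cells were 28.4% (26.9 to 29.9) of WT fibroblasts and 54.1% (51.3 to 56.8) of AIBP-KO fibroblasts. Pi16 progenitor-like cells were 30.0% (28.5 to 31.5) and 11.8% (10.1 to 13.7), Cxcl14 interstitial-like cells 22.4% (21.1 to 23.8) and 11.0% (9.34 to 12.8), and the fourth group 19.2% (17.9 to 20.5) and 23.1% (20.8 to 25.5). Cycling cells, which were also counted in their state, were 3.35% and 8.51%. Each state had more UMIs per cell in AIBP-KO, with a median of 9179 in WT and 13596 in AIBP-KO for activated cells and of 4161 and 6978 for Pi16 cells. Fewer dissociated cells of a state and fewer such cells in the muscle cannot be told apart.

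**Figure D3:**
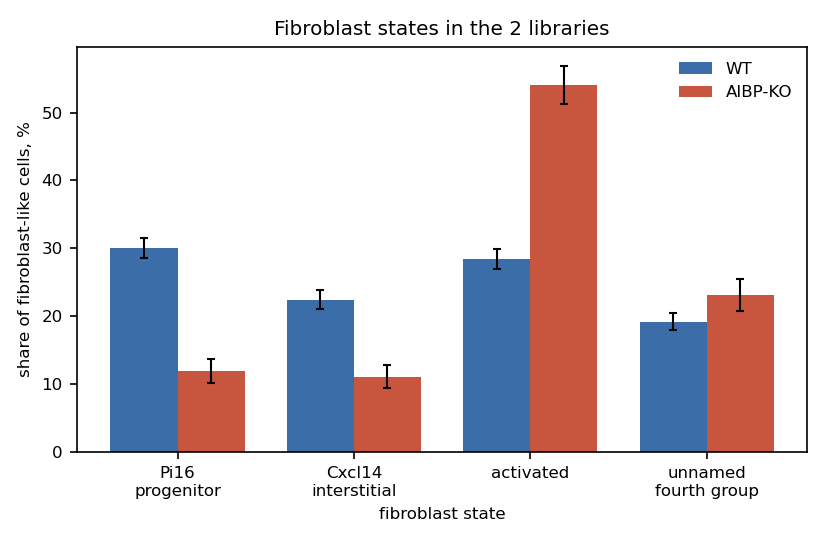
Share of fibroblast-like cells assigned to each state in WT (blue, 3617 cells) and AIBP-KO (red, 1292 cells), with exact 95% Clopper-Pearson intervals for counting error. The activated state takes 28.4% in WT and 54.1% in AIBP-KO, and both the Pi16 and the Cxcl14 states are smaller in AIBP-KO.

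Across the whole libraries, matrix RNA was lower in AIBP-KO. Member UMIs were 3.0% of all UMIs in WT and 2.07% in AIBP-KO. A member was counted as higher or lower where the ratio was at least 1.5 or at most 0.667 among genes of at least 20 CPM in either library. By this rule 17 of 34 members were lower, against 9.04% of all genes tested, and 0 were higher, against 5.48%. Dcn was at 1532 CPM in WT and 868 in AIBP-KO, with a ratio of 0.567 (0.561 to 0.572), and Fn1 at 1287 and 681, with a ratio of 0.530. Fibroblasts were also a smaller share of AIBP-KO cells, and a whole-library ratio mixes cell shares with levels.

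Within all fibroblast-like cells the members differed less between the libraries. Of 35 members 1 was higher, against 6.43% of all genes, and 4 were lower (11.4%), against 12.3%, so the share that was lower was near the background. Eln was the higher one, at 142 and 246 CPM with a ratio of 1.73 (1.65 to 1.82). The lower ones were Fbln2, a basement membrane and elastic-fibre fibulin, at 827 and 441 CPM, Col5a3 at 912 and 524, Fbn1 at 1229 and 785 and Lum at 1465 and 974. With the 4 states weighted equally, Fbln2 stayed lower, at a ratio of 0.562, while Col5a3, Fbn1 and Lum had ratios of 0.842, 0.925 and 0.954 and were no longer called. Col3a1 stood at 15447 and 15639 CPM, a ratio of 1.01 (1.01 to 1.02). That ratio is an average over states in which the gene went in opposite directions, and it also carries the difference in state shares. With the states weighted equally the Col3a1 ratio was 1.43, and with their pooled share in both libraries 1.35.

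In the Pi16 progenitor-like state, the genes of collagens I and III, Postn, Sparc and Eln were higher in AIBP-KO. Of 32 members 6 were higher (18.8%), against 4.35% of all genes, and 5 were lower (15.6%), against 9.02%. Col3a1 was at 14575 CPM in WT and 30089 in AIBP-KO, a ratio of 2.06 (2.04 to 2.09). Col1a1 was at 6688 and 10875, a ratio of 1.63 (1.59 to 1.66), and Col1a2 at 7328 and 12076, a ratio of 1.65 (1.62 to 1.68). Postn was at 690 and 1519 CPM (2.20, 2.07 to 2.33), Sparc at 7435 and 13053 (1.76, 1.72 to 1.79) and Eln at 123 and 232 (1.88, 1.62 to 2.18). The collagen V genes Col5a1, Col5a2 and Col5a3 had ratios of 1.29, 1.40 and 0.852, none past the fold. The 5 lower members were Col8a1, Col12a1, Col15a1, Bgn (biglycan) and Fbln2. Bgn was at 409 and 242 CPM, while Col12a1, at 28.5 and 5.45, was near the lymphoid level in AIBP-KO. The state rests on 153 AIBP-KO cells. Its satellite cell and myoblast markers summed to 126 CPM in WT and 434 in AIBP-KO, and their part in these ratios was not tested.

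The activated state went the other way for the same collagen genes. Of 35 members 0 were higher, against 5.44% of all genes, and 10 were lower (28.6%), against 6.49%. The median log2 ratio was -0.43 over the members and -0.05 over all 6010 genes tested. Col1a1 was at 17770 CPM in WT and 10014 in AIBP-KO, a ratio of 0.564 (0.559 to 0.568), and Col1a2 at 13811 and 9040, a ratio of 0.655 (0.649 to 0.660). Col3a1, at 16340 and 11878 with a ratio of 0.727, did not reach the fold. The Col1a1 call ended with the gate on thinned cells, at a log2 ratio of -0.53. The Col1a2 call ended under 8 alternatives, at log2 ratios from -0.57 to -0.34, among them TMM scaling (-0.55). The other lower members were Col5a3, Col6a2, Col12a1, Thbs1, Thbs2, Fmod, Fbln2 and Loxl2, a lysyl oxidase. The Thbs1 call also ended with the gate on thinned cells, at a log2 ratio of -0.51. Of the lower members, alternatives were followed gene by gene only for Col1a1, Col1a2 and Thbs1. Thbs2 was at 821 and 496 CPM (0.605), Col12a1 at 908 and 584 (0.643) and Loxl2 at 340 and 213 (0.626).

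Of the injury-matrix genes highest in the activated state of WT, Thbs1 was lower there, while Postn, Tnc, Cthrc1 and Sparc did not reach the fold. Postn was at 5977 and 5054 CPM (0.846, 0.836 to 0.855), Tnc at 1150 and 1026 (0.892) and Cthrc1 at 1310 and 1352 (1.03, 1.01 to 1.06). In all fibroblasts Postn, Tnc and Cthrc1 had ratios of 1.2, 1.4 and 1.4, or log2 ratios of 0.32, 0.43 and 0.51. Over cells of 4000 to 12000 UMIs alone, chosen after seeing the data, these log2 ratios turned to -0.02, -1.03 and -0.59, and in activated cells Tnc and Cthrc1 stood at -0.86 and -0.59. With the states weighted by their pooled share in both libraries, the ratios were 0.992 for Postn and 0.876 for Tnc. Cycling cells were 8.18% of activated WT cells and 14.9% of activated AIBP-KO cells, and in cycling fibroblasts Col1a1 was at 11829 and 6783 CPM. Without the cycling cells, an alternative chosen after seeing the data, the lower members of the activated state again numbered 10. When cells were assigned after thinning to 1000 UMIs, 3 members of the activated state were lower and 2 higher. Over cells of 4000 to 12000 UMIs, 5 were higher, and Col3a1 had a log2 ratio of -0.15, against -0.46 over all depths. The share of all genes is not given for these alternatives.

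**Figure D4:**
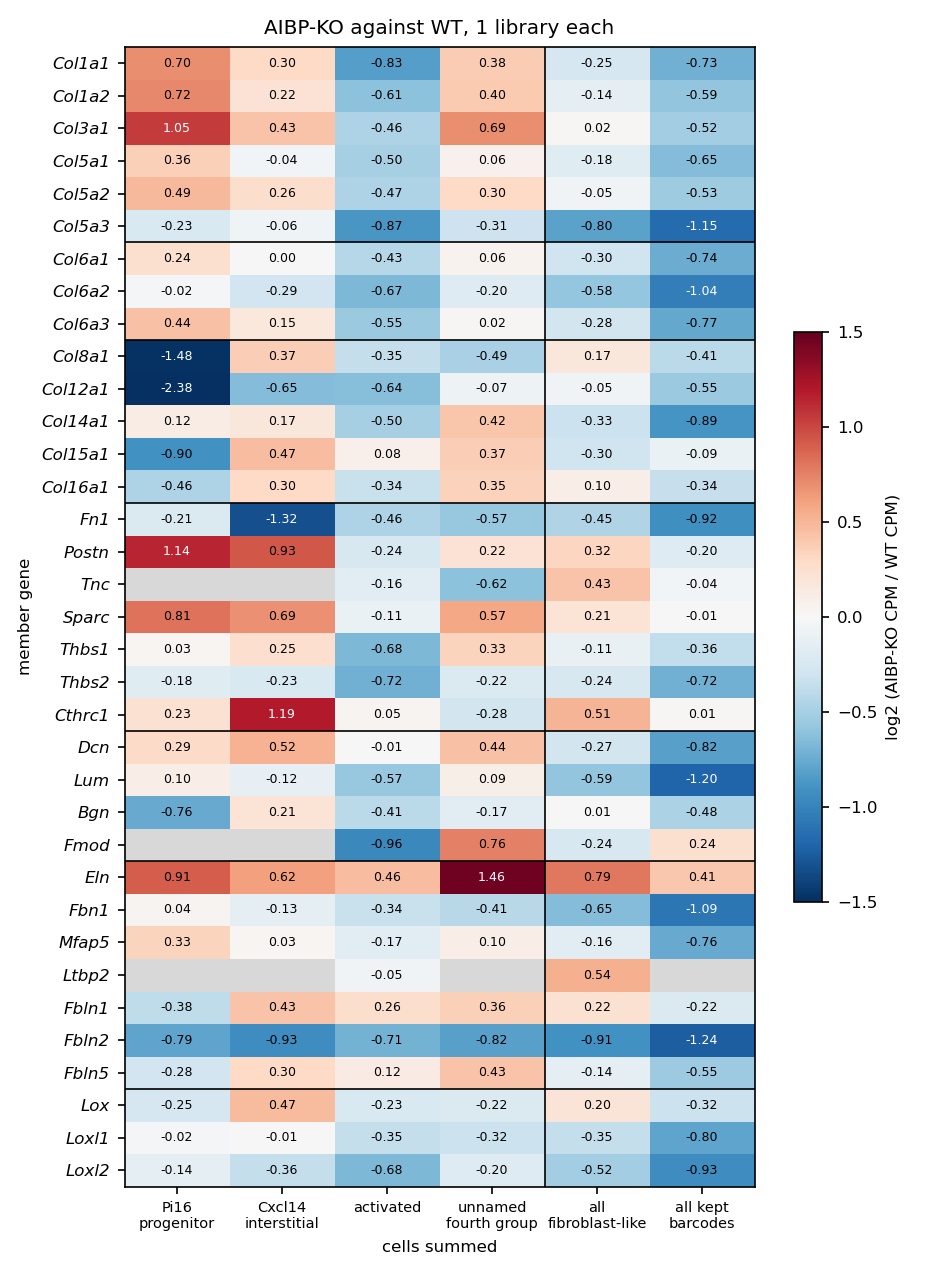
Log2 ratio of AIBP-KO over WT for each member (rows, grouped by role) in the 4 fibroblast states, all fibroblast-like cells and all kept barcodes (columns), from summed UMIs of 1 library each. Red is higher and blue lower in AIBP-KO, grey is below 20 CPM in both libraries, and colours stop at 1.5 either way. Col1a1, Col1a2 and Col3a1 are red in the Pi16 column and blue in the activated column, and the Fbln2 row is blue throughout.

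In the Cxcl14 interstitial-like state Col1a1, Col1a2 and Col3a1 had log2 ratios of 0.30, 0.22 and 0.43, under the fold. In the fourth group these were 0.38, 0.40 and 0.69, with Col3a1 past it. Satellite cell and myoblast markers summed to 220 CPM in WT and 786 in AIBP-KO in the Cxcl14 state and to 416 and 785 in the fourth group, and their part in these ratios was not tested. In the Cxcl14 state 4 of 32 members (12.5%) were higher, against 9.56% of all genes, and 3 (9.38%) were lower, against 11.0%, both near the background. The higher ones were Postn at 116 and 221 CPM, Sparc at 6955 and 11203, Eln at 115 and 177 and Cthrc1 at 18.1 and 41.3. Cthrc1 did not exceed the lymphoid level in both libraries here. With the gate on thinned cells the calls of Postn, Cthrc1 and Eln ended, at log2 ratios of 0.19, 0.11 and 0.50, and that of Eln also by TMM (0.58) and by the mean per-cell CPM (0.44). Over cells of 4000 to 12000 UMIs the Postn call ended too (0.43). The lower ones were Fn1, at 802 and 322 CPM with a ratio of 0.401 (0.348 to 0.460), Fbln2 and Col12a1. In the fourth group 3 of 34 members (8.82%) were higher, against 5.02%, and 2 (5.88%) were lower, against 9.39%. The higher ones were Col3a1, at 17168 and 27725 CPM (1.61, 1.60 to 1.63), Eln, at 285 and 786 (2.75, 2.55 to 2.98), and Fmod, at 28.6 and 48.5. The lower ones were Fbln2 and Tnc, at 110 and 72.1 CPM, a call that ended under 7 alternatives, at log2 ratios from -0.57 to -0.47.

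Fbln2 was lower in AIBP-KO and past the fold in every fibroblast state, and Eln was higher in every state. Other members also kept 1 direction, among them Fn1 with ratios from 0.401 to 0.862 and Thbs2 from 0.605 to 0.881. Neither Fn1 nor Thbs2 was past the fold in every state. Ratios of Fbln2 and Thbs2 within the states under the alternatives are not given. Fbln2 was at 763 and 442 CPM in the Pi16 state, 1348 and 706 in the Cxcl14 state, 653 and 400 in the activated state and 993 and 565 in the fourth group, with ratios from 0.524 to 0.612. After thinning to 1000 UMIs, 53.2% (51.5 to 54.8) of WT fibroblasts and 31.3% (28.8 to 34.0) of AIBP-KO fibroblasts had a Fbln2 UMI, and 88.9% and 86.2% before thinning. In lymphoid cells, which should lack it, the thinned shares were 0.418% and 0%, the latter allowing up to 1.21%. Eln had ratios of 1.88, 1.53, 1.37 (1.27 to 1.48) and 2.75 in the same order, the activated value being under the fold. Exons of 11 of the 35 members overlap another gene in GENCODE. The overlap of Eln is on the opposite strand and that of Col3a1 on the same strand. The labels do not say whether counting used strand.

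The collagen chains did not keep a fixed proportion. UMIs of Col3a1 per UMI of Col1a1 were 2.18 (2.15 to 2.21) in WT Pi16 cells and 2.77 (2.71 to 2.83) in AIBP-KO, and 0.920 (0.913 to 0.926) and 1.19 (1.18 to 1.20) in activated cells. The ratio was therefore higher in AIBP-KO in both states, beyond counting error. For Col1a1 per Col1a2, the 2 chains of collagen I, it was 0.913 and 0.900 in Pi16 cells, with intervals that overlap, and 1.29 and 1.11 in activated cells. Of the collagen V chains, Col5a3 was lower than the others in the activated state, with a ratio of 0.547 beside 0.706 for Col5a1 and 0.724 for Col5a2. The collagen VI chains Col6a1, Col6a2 and Col6a3 had ratios of 0.741, 0.628 and 0.681 there and of 1.18, 0.990 and 1.36 in Pi16 cells.

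Per cell, at 1000 UMIs each, Pi16 progenitor-like cells had a median of 11 Col3a1 UMIs in WT (quartiles 7 and 18) and 27 in AIBP-KO (21 and 39.5). For Col1a1 the medians were 5 and 8 in Pi16 cells and 17 and 10.5 in activated cells. The quartile ranges of Col3a1 in Pi16 cells did not overlap between the libraries, and those of Col1a1 in activated cells did. Postn was detected in 31.3% (28.5 to 34.2) of thinned WT Pi16 cells and 74.2% (66.4 to 80.9) of AIBP-KO Pi16 cells, and unthinned in 56.0% and 94.1%. In thinned lymphoid cells it was detected in 5.44% and 2.98%.

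**Figure D5:**
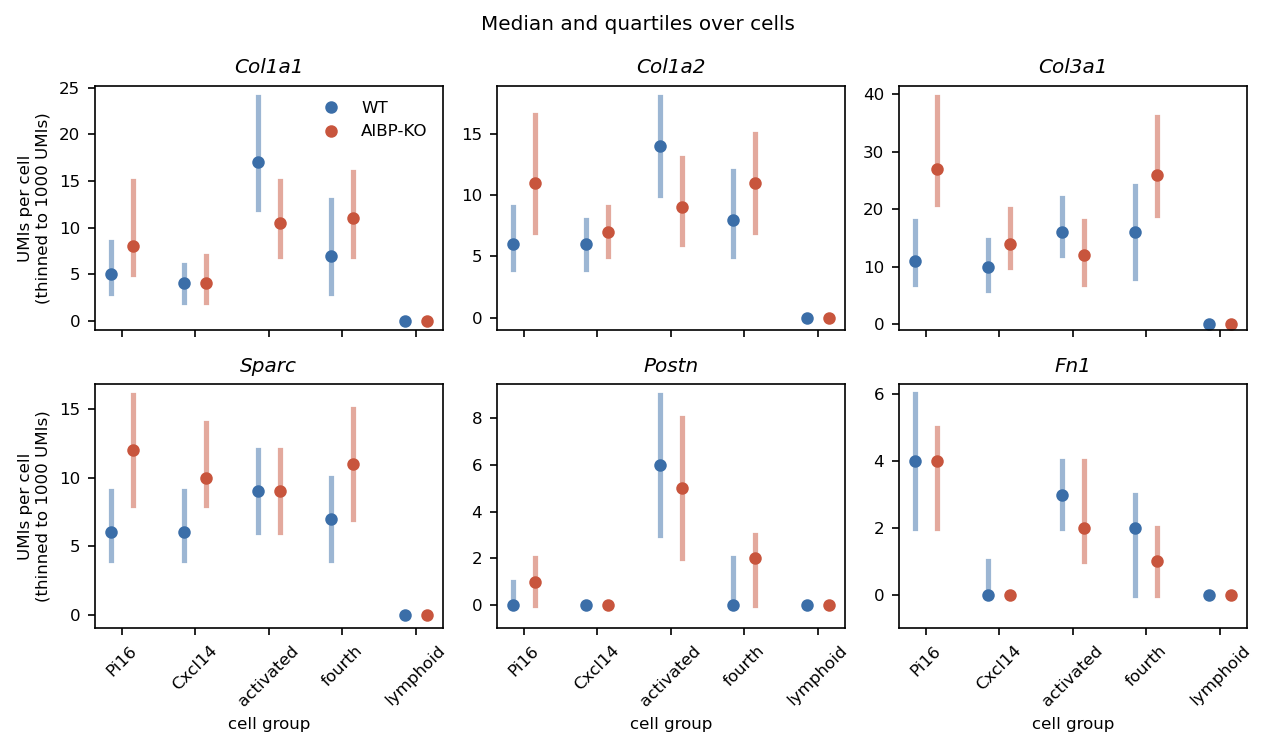
UMIs per cell of 6 members after thinning each cell to 1000 UMIs (vertical axes differ between panels), as the median (point) with the quartiles (bar) over cells of WT (blue) and AIBP-KO (red). Bars show the spread between cells of 1 library, not between animals. Col3a1 in Pi16 cells has medians of 11 and 27, and Col1a1 in activated cells 17 and 10.5.

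Genes that act on the members were listed too, and several of them also served as state markers. Of 23 collagen biosynthesis and processing genes tested in fibroblasts 0 were higher, against 6.43% of all genes, and 3 (13.0%) lower, near the 12.3% of all genes. These were Pcolce2 (an enhancer of procollagen cleavage, 194 and 59.3 CPM), Bmp1 (the procollagen C-proteinase, 366 and 242) and Creb3l1. Ppib, under the fold, was at 1059 and 1505 CPM, a ratio of 1.42 (1.40 to 1.45). In activated cells 3 of 22 (13.6%) were lower, against 6.49% of all genes, namely Plod1, Plod2 and Creb3l1, and 0 were higher, against 5.44%. Of 15 matrix receptors 1 (6.67%) was higher in fibroblasts, against 6.43% of all genes, and 5 (33.3%) lower, against 12.3%, among them Ddr2, a fibrillar collagen receptor, at 207 and 118 CPM, and Lrp1 at 742 and 459. Of 16 matrix turnover genes 2 (12.5%) were higher, against 6.43% of all genes, and 5 (31.25%) lower, against 12.3%. The higher ones were Mmp9, at 7.19 and 33.3 CPM, and Timp1, a marker used for the activated state. Among the lower ones were Adamts5 at 535 and 191 CPM, Timp3 at 325 and 121 and Mmp3 at 82.9 and 34.2. Of 19 TGF-beta genes 2 (10.5%) were higher, against 6.43% of all genes, and 4 (21.1%) lower, against 12.3%. The higher ones, Tagln at 135 and 371 CPM and Acta2 at 199 and 503, are markers used for the activated state, and Ltbp4, at 277 and 128, is one of the Cxcl14 state. Ltbp1, which tethers latent TGF-beta to the matrix, was at 136 and 60.1 CPM. Levels over all fibroblasts mix state shares with levels per state, and the part of the shares was not tested. Within the 4 states Ddr2 had ratios from 0.799 to 0.909, against 0.568 over all fibroblasts. Those of Timp3 ran from 0.659 to 0.846 (0.374) and those of Adamts5 from 0.60 to 0.816 (0.357). Other genes had a lower ratio within a state than over all. Among them were Mmp3 in activated cells (0.285 and 0.412) and Pcolce2 in the Cxcl14 state (0.183 and 0.305).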

How the data were processed

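Adductor muscle was digested with collagenase D and sequenced as droplet single-cell libraries. The authors deposited raw UMI counts per gene and barcode. Cell Ranger made them, as 5.0.0 per the file headers but as 2.1.1 per the submitters' processing notes. Their genome build was not given in the sources used here. Members and lists were chosen with earlier results of these data known.

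Barcodes with under 200 genes (49 WT, 31 AIBP-KO) or over 10% mitochondrial UMIs (149 and 197) were removed. Each kept barcode was compared with 21 marker lists by a Poisson likelihood with 5% of the average profile mixed in. A class needed 3 detected markers and a lead of 3 log units. Barcodes better described by 2 lineages (gain over 10) were left out, and no doublet caller was run. A further 4.73% of WT and 5.66% of AIBP-KO barcodes stayed unassigned. Counts were summed per class and library as CPM. Log2 ratios used a prior count of 0.5, and classes needed 50 cells in each library. Named genes were the 35 members, Naxe, marker genes and genes that led a group. List genes were taken from the 4 largest log2 ratios of each list, except Plod1 and Plod2, which were called in activated cells. The ratio step was tested on simulated data. Alternatives included edgeR 4.0.16 TMM factors. Python 3.11.15, numpy 2.4.6, scipy 1.17.1, pandas 2.3.3 and R 4.3.3 were used.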

Additional observations from a re-analysis of the deposited data

Results flagged for a closer look

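Some members had ratios past the fold in opposite directions in a pair of fibroblast states. The AIBP-KO to WT ratio of Col1a1 was 1.63 in Pi16 progenitor-like cells and 0.564 in activated cells. That of Col1a2 was 1.65 and 0.655 in the same states. Fmod had a ratio of 1.69 in the fourth group (28.6 and 48.5 CPM) and 0.513 in activated cells (94.1 and 48.3 CPM). Tenocyte-like cells held 28.5% of Fmod UMIs in WT and 60.7% in AIBP-KO. Tenocyte markers summed to 542 and 749 CPM in the fourth group and to 990 and 766 in activated cells. Mixtures of fibroblasts and tenocytes were not set aside, and their part in the Fmod ratios was not tested. In activated cells the gate on thinned cells ended the calls of Col1a1 and Col1a2, at log2 ratios of -0.53 and -0.34, and the Col1a2 call also ended by TMM (-0.55) and 6 other alternatives. In Pi16 cells both calls held in the 12 alternatives. With 1 library per genotype these differences between states were not tested.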

How the results depend on the processing

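No paired analysis was possible because each genotype has 1 library and the labels give no replicate numbers. Of the planned and added alternatives (2 added after seeing the data), directions and sizes for single genes are given as ranges. Alternatives were followed gene by gene for Col1a1, Col1a2, Col3a1, Postn, Tnc, Cthrc1, Fn1, Sparc, Thbs1, Dcn, Eln, Fbln1 and Lox. For the other members the counts below do not say which calls held. Log2 ratios of Col1a1, Col1a2 and Col3a1 in Pi16 progenitor-like cells ranged over 0.70 to 0.83, 0.71 to 0.82 and 0.98 to 1.18 in 12 settings, and in activated cells over -0.86 to -0.53, -0.64 to -0.34 and -0.49 to -0.08. With the lymphoid level subtracted, the log2 ratio of Tnc went to 2.16 in the Pi16 state and 4.32 in the Cxcl14 state, where Tnc is at background. The largest shift of a group's log2 ratios by TMM or median-of-ratios factors was 0.084. The causes of the other differences were not tested.

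Counts of members past the fold differed with the limit, the gate and the scaling. The share of all genes is not given beside these counts, here or at the other limits that follow. They show how the member counts moved and are not read against a background. The gate on thinned cells gave 6 higher and 2 lower in all fibroblasts, 3 lower in the Pi16 state, 1 higher and 5 lower in the Cxcl14 state, 2 higher and 3 lower in the activated state and 10 higher in the fourth group. In all fibroblasts 5 were higher and 2 lower by the mean per-cell CPM, 6 higher with thinned counts, 2 higher and 2 lower by TMM, 3 higher and 2 lower by median-of-ratios factors, 2 higher with barcodes of 2 lineages kept, and 3 higher among cells of 4000 to 12000 UMIs. States weighted equally left 1 lower there, and states weighted by pooled share 2. In the Pi16 state 3 were lower by the mean per-cell CPM and 8 with no filter on low levels, and in the Cxcl14 state 6 were lower with no filter. In the activated state 1 was higher with thinned counts and 5 among cells of 4000 to 12000 UMIs. In the fourth group 6 were higher with thinned counts. There 1 was lower by TMM, by median-of-ratios factors, with totals that leave out the members, mitochondrial and haemoglobin genes, with barcodes of 2 lineages kept and with the lymphoid level subtracted, and 4 among cells of 4000 to 12000 UMIs.

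With a limit of 25% above or the inverse below, 4 members were higher and 9 lower in all fibroblasts, 10 higher in the Pi16 state, 10 higher in the Cxcl14 state, 1 higher and 23 lower in the activated state, 13 higher and 5 lower in the fourth group, and 1 higher over all kept barcodes. At a fold of 2, 0 were higher and 0 lower in all fibroblasts, 2 higher and 2 lower in the Pi16 state, 1 higher and 1 lower in the Cxcl14 state, 0 lower in the activated state, 1 higher and 0 lower in the fourth group, and 5 lower over all kept barcodes. Of WT fibroblasts the Pi16 state took 31.8% with the thinned gate and 31.8% with a stricter state gate, the Cxcl14 state 19.6% with the thinned gate, and the activated and the fourth group 30.3% and 16.2% with the stricter one. Of AIBP-KO fibroblasts the thinned gate put 15.2% in the Pi16 state and 17.6% in the fourth group.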
